A study of Homo sapiens with 8 samples.

Results

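The genes described here are 10 transcription factors of the ETS family other than ETS1 itself: ETS2, FLI1, ERG, ETV4, ETV5, ELK1, ELK3, ELF4, GABPA and EHF. They were chosen by name as relatives of the knocked-down factor, with earlier results of these data known, and make up 10 of the 56638 gene symbols in the count tables. RNA-seq had been carried out on SCC25, an established human line of tongue squamous cell carcinoma, after ETS1 was depleted in 2 ways, each with 2 libraries per group. In the first, cells were transfected with a pool of 4 siRNAs against ETS1 (ETS1 siRNA) or with non-targeting siRNAs (siRNA control). In the other, cells stably carried a lentiviral hairpin against ETS1 (shETS1, the hairpin numbered 3) or a non-targeting hairpin (shCON), and both lines had been selected with puromycin at 2 µg/ml. All 8 libraries came from cells grown with hydrocortisone at 400 ng/ml. The hairpin groups rest on 1 hairpin and 1 stably selected population each, and whether their 2 libraries came from separate cultures was not given in the sources used here. The comparison of each knockdown with its own control asks whether the relatives of ETS1 kept their expression when ETS1 was lost.

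ETS factors share a winged helix-turn-helix DNA-binding domain that reads a GGAA core, so several of them can occupy the same site, and what separates them is largely the flanking bases, their partners and the signals that reach them. ETS2 is the closest relative of ETS1. FLI1 and ERG form a pair best known from endothelial and blood cells, ETV4 and ETV5 belong to the PEA3 group downstream of receptor tyrosine kinases and ERK, and ELK1 and ELK3 are ternary complex factors that bind beside serum response factor. ELF4 is an ELF-group factor of epithelial and immune cells, EHF is an epithelium-restricted factor of differentiated epithelia, and GABPA is a widely expressed factor that pairs with GABPB and serves many housekeeping and mitochondrial genes.

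Because every member reads the GGAA core, the promoters of members that moved in different ways are shown with that core in capitals. The set of RefSeq promoters (GRCh38.p14) used here gave a start for 7 of the 10 members, with 15 windows in all, each covering the 250 bases before a start. This set held no entry for FLI1, ETV4 and ETV5, which does not mean that RefSeq as a whole lacks one. Capitals mark GGAA or, where the core lies on the other strand, TTCC. The longer site CCGGAAG, which contains the core, was also searched on both strands. The windows chosen for GABPA, which was lower after siRNA, ETS2, which was higher after shRNA, and ELK1 and ELK3, which were lower after shRNA, read as follows.
GABPA, chr21:25734722-25734971, plus strand: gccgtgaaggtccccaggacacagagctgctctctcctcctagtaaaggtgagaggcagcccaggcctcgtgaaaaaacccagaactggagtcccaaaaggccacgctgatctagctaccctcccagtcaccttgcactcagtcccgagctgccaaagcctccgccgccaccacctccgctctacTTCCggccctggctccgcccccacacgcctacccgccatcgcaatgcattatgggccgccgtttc
ETS2, chr21:38805679-38805928, plus strand: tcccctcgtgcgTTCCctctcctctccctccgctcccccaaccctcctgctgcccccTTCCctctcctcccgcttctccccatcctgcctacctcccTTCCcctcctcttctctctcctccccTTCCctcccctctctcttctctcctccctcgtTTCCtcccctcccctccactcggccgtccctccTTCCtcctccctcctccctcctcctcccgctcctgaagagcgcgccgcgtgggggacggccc
ELK1, chrX:47650605-47650854, minus strand: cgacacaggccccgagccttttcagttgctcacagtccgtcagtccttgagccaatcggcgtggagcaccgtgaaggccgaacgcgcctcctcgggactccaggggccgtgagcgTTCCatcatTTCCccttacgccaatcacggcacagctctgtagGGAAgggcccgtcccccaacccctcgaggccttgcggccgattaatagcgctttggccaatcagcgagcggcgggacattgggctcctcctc
ELK3, chr12:96255248-96255497, plus strand: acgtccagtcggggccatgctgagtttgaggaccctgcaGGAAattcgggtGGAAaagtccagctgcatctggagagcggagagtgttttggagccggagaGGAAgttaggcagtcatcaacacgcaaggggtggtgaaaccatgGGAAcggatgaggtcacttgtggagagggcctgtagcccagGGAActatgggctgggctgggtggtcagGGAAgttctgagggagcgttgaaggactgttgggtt
The GABPA window held 1 core, which was also the 1 match to CCGGAAG among the 15 windows, on the opposite strand at position -66 from the start. The ELK1 window held 3 cores, and the windows shown for ETS2 and ELK3 held 6 each. GABPA and ELK1 have 1 window each in the set used, whereas ETS2 and ELK3 have 2, and the ones not shown held 3 cores for ETS2 and 2 for ELK3. For these 2 genes, the window shown was thus the one with more cores, and it lies downstream of the other. The ELK3 window not shown spans chr12:96194125-96194374, so the one shown precedes a start further inside the gene. All 6 cores in the ETS2 window read TTCC, and all 6 in the ELK3 window read GGAA. A core was present in 92.7% of all 35116 windows of this length, with a median of 3 copies, and 9.14% of windows held 6 or more. CCGGAAG was present in 8.52% of them. These are matches of letters, and no binding was measured.

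A second sequence, the heptamer ACCTCAA, is shown because an earlier look at the same data had brought it up. Of the 3′ UTRs of the 10 members in GENCODE v44 on GRCh37, those of GABPA and EHF held it, with 1 copy each and in capitals below.
GABPA, chr21:27142335-27142363, plus strand: tgaaaaggtatACCTCAAcccaaaaataa
EHF, chr11:34681639-34681667, plus strand: gcaagacttcaACCTCAAcctatctttat
Among all 19277 3′ UTRs, 10.97% carried the heptamer. Its part in the levels of GABPA and EHF was not tested.

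Depth ranged from 15954616 to 25953213 counts per library. The siRNA and shRNA tables differed in make-up: structural RNAs that lack poly(A) tails made up at most 0.00339% of counts in the siRNA libraries, 5.61 to 6.63% in shCON and 9.64 to 12.3% in shETS1, and mitochondrial genes took 0% in the siRNA table against 0.508 to 0.820% in the shRNA table. Levels were therefore scaled within each table (CPM, reads scaled to the TMM-adjusted size of the library) and are not compared across the 2 tables. Within the shRNA table, the share of structural RNAs also differed between shCON and shETS1, so this make-up and the knockdown cannot be told apart there. The common dispersion, the spread between replicates beyond counting error, came to 0.0192 in the siRNA table and 0.00402 in the shRNA table. All 8 markers of squamous epithelium were detected in every library. The target itself, ETS1 (chr11:128328656-128457453, GRCh37, as for the other gene positions), stood at 288 and 248 CPM in siRNA control and at 17.4 and 13.2 CPM in ETS1 siRNA. It stood at 82.3 and 72.1 CPM in shCON and at 9.76 and 11.1 CPM in shETS1, so the groups were apart in both tables. It fell by 4.13 on the log2 scale after siRNA (SE 0.19, adjusted p 0.00017) and by 2.89 after shRNA (SE 0.10, adjusted p 3.8e-13).

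All 10 members were expressed in both controls and passed the filter on low counts in every fit. Levels per kilobase used the merged length of all GENCODE v44 exons of a gene. The transcripts expressed may be shorter, so the order between genes is uncertain beyond the SDs given. Per kilobase of exon, the siRNA control libraries held ETS2 at 36.8 ± 1.67 CPM (mean ± SD, n = 2, as for the levels that follow), which overlapped ETS1 at 37.5 ± 4.0. ELK3 at 21.5 ± 3.01 and EHF at 19.0 ± 1.41 came next and overlapped each other. ETV4 (15.3 ± 0.621), ELF4 (12.4 ± 0.00127) and ELK1 (11.4 ± 0.305) followed, each apart from its neighbours. ETV5 (7.93 ± 1.76) and GABPA (7.34 ± 1.17) overlapped, and FLI1 (3.87 ± 0.203) and ERG (2.04 ± 0.0479) were lowest. In shCON, ETS2 again led at 49.4 ± 0.154 CPM per kilobase, ahead of EHF at 17.9 ± 0.341. GABPA (11.4 ± 0.172), ETS1 (10.8 ± 1.01), ELF4 (9.87 ± 0.505), ELK3 (9.18 ± 0.777) and ETV4 (8.53 ± 0.308) each overlapped the next in this order, and ELK1 stood apart below them at 8.25 ± 0.00445. FLI1 (3.11 ± 0.0417) lay above ETV5 (2.01 ± 0.193) and ERG (1.96 ± 0.0728), which overlapped.

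**Figure D1:**
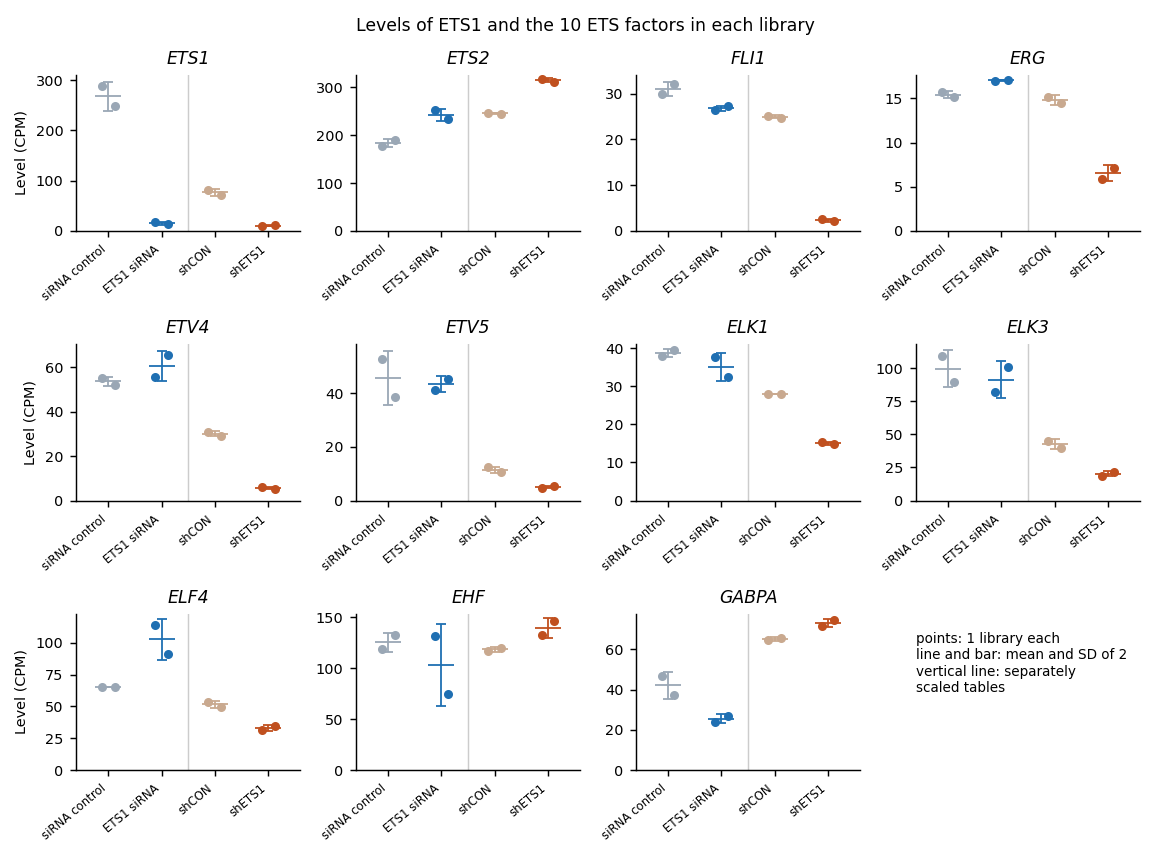
Level of ETS1 and of each of the 10 members in every library (y axis, CPM, starting at 0), with 1 point per library and a line and bar for the mean and SD of 2 in siRNA control, ETS1 siRNA, shCON and shETS1 (x axis), the vertical line separating tables scaled on their own. FLI1 sits at 25.2 and 24.7 CPM in shCON against 2.61 and 2.14 in shETS1, while its siRNA groups lie between 26.5 and 32.2.

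After siRNA, most relatives of ETS1 were not called as changed, which does not show that their levels were kept. ELF4 rose and GABPA fell, so 2 of the 10 members passed the test (adjusted p under 0.1), where 3.41% of the 14742 genes tested did. ELF4 was the 1 member called higher (1.13% of all genes) and GABPA the 1 called lower (2.27%), and neither reached 2-fold, as 0.834% of all genes did. The median log2 fold change of the members was -0.10 against 0.0018 over all genes tested. The 2 groups did not overlap for 7 members, where 51.9% of all tested genes showed no overlap.

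ELF4 (chrX:129197930-129244691) stood at 65.0 and 65.0 CPM in siRNA control and at 114 and 91.5 CPM in ETS1 siRNA. Both knockdown libraries were higher, and the log2 fold change was 0.66 (SE 0.15, adjusted p 0.083), or 1.58-fold. GABPA (chr21:27106881-27144771) moved the other way, from 46.9 and 37.4 CPM to 24.0 and 27.1 CPM. Both knockdown libraries lay below both controls, and it fell by 0.72 on the log2 scale (SE 0.15, adjusted p 0.070). The exons of GABPA share 692 bases, 12.1% of their length, with ATP5J on the opposite strand. The strand setting of the counting was not given in the sources used here, so reads of the 2 genes may be mixed; ATP5J itself had a log2 fold change of 0.16 after siRNA (adjusted p 0.54). Both calls were lost without siRNA control replicate 1, with adjusted p-values of 0.45 for ELF4 and 0.53 for GABPA, although neither changed direction. That of ELF4 was also lost without siRNA control replicate 2 (adjusted p 0.16).

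ETS2 (chr21:40177107-40196879), the closest relative of the target, stood at 177 and 189 CPM in siRNA control and at 252 and 234 CPM in ETS1 siRNA. Its groups were apart, with a log2 fold change of 0.41 (SE 0.13) that missed the threshold (adjusted p 0.16, unadjusted p 0.012). FLI1 and ERG had log2 fold changes of -0.21 (SE 0.13, adjusted p 0.43) and 0.14 (SE 0.14, adjusted p 0.63). For ETV4, the value was 0.18 (SE 0.13, adjusted p 0.50), and for ETV5 it was -0.08 (SE 0.16, adjusted p 0.84). ELK1 gave -0.15 (SE 0.13, adjusted p 0.58) and ELK3 -0.12 (SE 0.16, adjusted p 0.73). EHF was the most variable, at 119 and 132 CPM in siRNA control and at 132 and 75.1 CPM in ETS1 siRNA. Its groups overlapped, the low value being that of ETS1 siRNA replicate 2, and the log2 fold change was -0.28 (SE 0.24, adjusted p 0.56). Without ETS1 siRNA replicate 1 it became -0.74 (adjusted p 0.022), and without ETS1 siRNA replicate 2 it became 0.06. The groups of ETV5 and ELK3 overlapped as well.

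After shRNA, every member moved in the fit reported here, although the call of GABPA held in only 5 of 15 alternatives. FLI1 and ETV4 lost most of their transcripts, ERG, ETV5, ELK3, ELK1 and ELF4 fell by less, and ETS2, EHF and GABPA rose slightly. All 10 members passed the test, in a comparison in which 60.6% of 16481 genes did, and no member's groups overlapped, as was the case for 76.6% of genes. Over all genes, 4900 were called higher and 5088 lower, and with library size as the only scaling 3624 and 6269. The members divided into 3 higher, where 29.7% of all genes were, and 7 lower, where 30.9% were. They had a median log2 fold change of -0.98 against 0.00066 over all genes tested. Of the 10, 5 were called at least 2-fold lower (FLI1, ETV4, ETV5, ERG and ELK3), where 7.78% of all tested genes were.

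**Figure D2:**
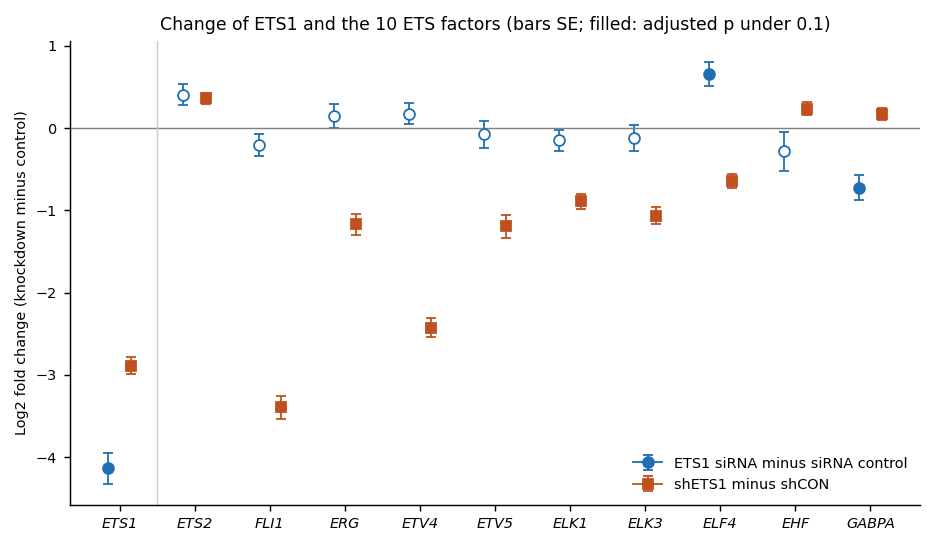
Log2 fold change of ETS1 and of each of the 10 members (y axis, knockdown minus control) after siRNA (circles) and after shRNA (squares), with bars for the SE and filled symbols for an adjusted p under 0.1. FLI1 at -3.40 and ETV4 at -2.43 are the lowest squares among the members, while all circles of the members lie between -0.72 and 0.66.

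FLI1 (chr11:128556430-128683162) was read 634 and 642 times in shCON, or 25.2 and 24.7 CPM. It was read 60 and 54 times in shETS1, or 2.61 and 2.14 CPM, and so was far lower in both knockdown libraries. It fell by 3.40 on the log2 scale (SE 0.14, adjusted p 2.6e-12), which is 10.5-fold, where ETS1 itself was 7.40-fold lower; the difference between these 2 folds was not tested. FLI1 lies beside ETS1 on chromosome 11, the 2 genes pointing away from each other with 98976 bases between them. SENCR, a long non-coding RNA on the opposite strand that shares 162 exon bases with FLI1, was counted 27 and 30 times in shCON and 0 times in both shETS1 libraries. Set against a floor of 3 counts per library it was at least 8.93-fold lower, while in the siRNA table it was counted 25 and 33 times in control and 26 and 43 times after knockdown.

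ERG (chr21:39751949-40033704), the other member of the FLI1 pair, stood at 15.2 and 14.4 CPM in shCON and at 5.93 and 7.18 CPM in shETS1. It was lower in both knockdown libraries and fell by 1.17 on the log2 scale (SE 0.13, adjusted p 7.6e-07). ETS2, which lies 143402 bases from ERG on chromosome 21 and also points away from its neighbour, went the other way. It stood at 246 and 245 CPM in shCON and at 319 and 312 CPM in shETS1. Its groups were apart, and it rose by 0.36 on the log2 scale (SE 0.07, adjusted p 0.00043), or 1.28-fold.

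In the PEA3 group, ETV4 (chr17:41605212-41656988) stood at 30.7 and 29.2 CPM in shCON and at 5.88 and 5.27 CPM in shETS1. Both knockdown libraries were far lower, and it fell by 2.43 on the log2 scale (SE 0.12, adjusted p 1.7e-11), which is 5.38-fold. ETV5 (chr3:185764103-185828107) started lower, at 12.4 and 10.8 CPM, and stood at 4.84 and 5.27 CPM in shETS1. Again the groups were apart, with a fall of 1.19 (SE 0.14, adjusted p 1.4e-06). ETV4 shares 68 exon bases with DHX8 on the opposite strand and ETV5 shares 164 with DGKG on the same strand, so a part of their counts is uncertain. DHX8 had a log2 fold change of 0.23 after shRNA (adjusted p 0.011) and DGKG one of -0.34 (adjusted p 0.044).

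Of the ternary complex factors, ELK3 (chr12:96588153-96663602) stood at 45.2 and 40.1 CPM in shCON and at 18.9 and 21.9 CPM in shETS1. ELK1 (chrX:47494920-47510003) stood at 28.04 and 28.02 CPM in shCON and at 15.4 and 14.8 CPM in shETS1. Both were lower in every knockdown library. ELK3 fell by 1.06 (SE 0.10, adjusted p 8.8e-08) and ELK1 by 0.89 (SE 0.10, adjusted p 5.5e-07) on the log2 scale.

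ELF4, which had risen after siRNA, was lower after shRNA, from 53.5 and 49.8 CPM in shCON to 31.5 and 34.6 CPM in shETS1. It fell by 0.65 on the log2 scale (SE 0.09, adjusted p 5.6e-06). EHF (chr11:34642640-34684835) stood at 117 and 120 CPM in shCON and at 133 and 147 CPM in shETS1. Both knockdown libraries were higher, and it rose by 0.24 (SE 0.07, adjusted p 0.013). GABPA stood at 64.5 and 65.9 CPM in shCON and at 71.8 and 74.6 CPM in shETS1. It rose by 0.17 (SE 0.07, adjusted p 0.065), the smallest change of the 10, while ATP5J on its opposite strand fell by 0.36 (adjusted p 0.00077). With library size as the only scaling, which shifted the median of all genes to -0.12, GABPA had a log2 fold change of 0.04 (adjusted p 0.63) and EHF one of 0.11 (adjusted p 0.25). Without shCON replicate 1, the adjusted p was 0.31 for GABPA and 0.11 for EHF, and without shCON replicate 2 or shETS1 replicate 2 it was 0.19 for GABPA, whose call held in 5 of 15 alternatives.

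Most members responded differently to the 2 knockdowns, as tested by the interaction in a fit of all 8 libraries. It passed the threshold for 8 of the 10 members, where 34.8% of 17190 genes passed. Of these, 7 were lower after shRNA than after siRNA, as were 19.7% of all genes, and GABPA was higher, as were 15.1%. The median interaction over the members was -1.05 on the log2 scale against -0.02 over all genes tested. FLI1 (-3.21, SE 0.17, adjusted p 6.2e-06) and ETV4 (-2.62, SE 0.16, adjusted p 7.9e-06) differed most between the knockdowns, by 9.24-fold and 6.16-fold. ERG differed by -1.34 (SE 0.19, adjusted p 0.00054), ELF4 by -1.33 (SE 0.17, adjusted p 0.00037) and ETV5 by -1.14 (SE 0.22, adjusted p 0.0039). For ELK3 the difference was -0.96 (SE 0.20, adjusted p 0.0058) and for ELK1 it was -0.76 (SE 0.15, adjusted p 0.0033). GABPA was 0.87 higher after shRNA than after siRNA (SE 0.17, adjusted p 0.0038). The other 2 members were not called. ETS2, whose log2 fold changes were 0.41 and 0.36, had a difference of -0.07 (SE 0.12, adjusted p 0.74), and EHF had one of 0.50 (SE 0.28, adjusted p 0.22). ETS1 differed as well, being reduced less by shRNA (1.23, SE 0.21, adjusted p 0.0017). The joint fit estimated scaling and spread from both tables together. Its common dispersion was 0.0109, against 0.0192 in the siRNA table and 0.00402 in the shRNA table. The p-values of the interaction may thus understate the spread of the siRNA libraries. The kind of knockdown, its duration and the make-up of the counts all differ between the tables and cannot be told apart. Whether the libraries were also prepared differently was not given in the sources used here.

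As a share of all transcripts of the 28 ETS genes, counted per kilobase of exon, ETS1 made up 16.4 ± 1.34% in siRNA control and 1.01 ± 0.145% in ETS1 siRNA (mean ± SD, n = 2, as for the shares that follow). ETS2 made up 16.1 ± 1.13% and 23.1 ± 0.0316% in the same groups. In the shRNA table, ETS1 went from 5.78 ± 0.392% to 0.895 ± 0.0495% and ETS2 from 26.4 ± 0.590% to 39.0 ± 1.87%. ETS2 was the most abundant member in all 4 groups. EHF went from 9.60 ± 0.427% to 13.0 ± 0.474% and GABPA from 6.08 ± 0.246% to 7.85 ± 0.0479% after shRNA. ETV4, in contrast, went from 4.57 ± 0.0489% to 0.978 ± 0.108% and FLI1 from 1.67 ± 0.0200% to 0.183 ± 0.0317%. After siRNA, ELF4 went from 5.43 ± 0.135% to 9.25 ± 0.964% and GABPA from 3.20 ± 0.431% to 2.11 ± 0.289%. These shares are descriptions without a test, and a share rises when another gene's falls. They also depend on the base: from counts not divided by exon length, ETV4 went from 2.79 ± 0.0194% to 0.597 ± 0.0736% after shRNA and ETS2 from 22.8 ± 0.595% to 33.7 ± 2.05%. Summed over the 10 members, the level in the siRNA table was 138 ± 3.02 CPM per kilobase for control and 149 ± 6.84 for knockdown. In the shRNA table it was 122 ± 1.54 for shCON and 116 ± 1.65 for shETS1.

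**Figure D3:**
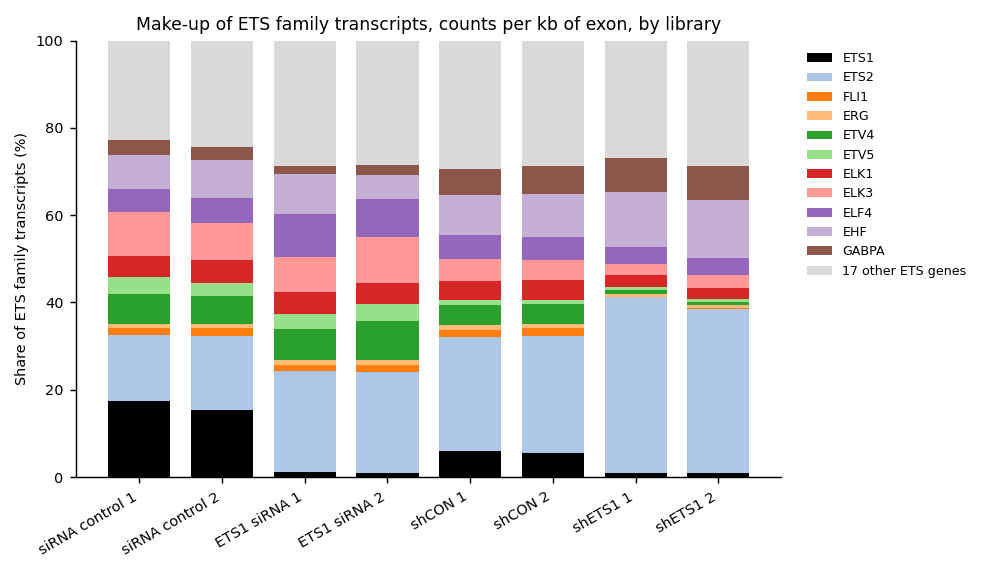
Make-up of ETS family transcripts in each of the 8 libraries (x axis), as the share of each gene in the summed counts per kilobase of exon of 28 ETS genes (y axis, percent, from 0 to 100), with the 17 other ETS genes in grey. ETS2 takes 26.4% in shCON and 39.0% in shETS1, while ETV4 and FLI1 shrink to 0.978% and 0.183%.

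In shETS1 the order of levels per kilobase became ETS2 (63.3 ± 0.938 CPM), EHF (21.1 ± 1.47), GABPA (12.8 ± 0.345) and ELF4 (6.30 ± 0.420), each apart from the next. ELK1 (4.44 ± 0.115) and ELK3 (4.39 ± 0.459) overlapped, as did ETV4 (1.59 ± 0.123) and ETS1 (1.46 ± 0.129). ETV5 (0.876 ± 0.0534) and ERG (0.866 ± 0.117) overlapped, and FLI1 was last at 0.296 ± 0.0417. In ETS1 siRNA, ETS2 led at 48.8 ± 2.55 CPM per kilobase. ELK3 (19.7 ± 2.95), ELF4 (19.6 ± 3.03), ETV4 (17.2 ± 1.93) and EHF (15.6 ± 6.04) each overlapped the next. ELK1 (10.3 ± 1.07), ETV5 (7.53 ± 0.501), GABPA (4.45 ± 0.384) and FLI1 (3.35 ± 0.0676) followed, and ERG (2.25 ± 0.00965) overlapped ETS1 (2.14 ± 0.415) at the end.

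Of the 17 other ETS genes, 9 could be tested after siRNA and none was called by edgeR, while 2 had an unadjusted p under 0.05 (ERF at 0.51 and ELF2 at 0.41 on the log2 scale), and the median was 0.37. After shRNA 10 could be tested and 7 were called, or 70% beside the 60.6% of all genes, with 2 higher and 5 lower and a median of -0.25. ETV6, a repressor of the family, fell by 1.05 on the log2 scale (SE 0.13, adjusted p 2.8e-06). ERF, a repressor controlled by ERK, fell by 0.62 (SE 0.09, adjusted p 2.6e-05). ELF2, a relative of ELF4, rose by 0.52 (SE 0.08, adjusted p 2.2e-05). ELK4, the third ternary complex factor, fell by 0.43 (SE 0.11, adjusted p 0.0032), ETV3 by 0.26 (adjusted p 0.018) and ELF1 by 0.23 (adjusted p 0.020). Of the 17, 7 (ELF5, ETV3L, FEV, SPDEF, SPI1, SPIB and SPIC) had at most 10 counts in any library.

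Of 14 partners and regulators of ETS factors, none was called after siRNA by edgeR (1 with an unadjusted p under 0.05, median log2 fold change 0.03). After shRNA 8 were called, or 57.1% beside the 60.6% of all genes, with 2 higher and 6 lower and a median of -0.09. CIC, a repressor of ETV4 and ETV5 that ERK signalling removes, fell by 1.04 (SE 0.12, adjusted p 1.7e-06). HCFC1, a cofactor of GABPA, fell by 1.32 (SE 0.16, adjusted p 1.8e-06), whereas the GABPA partners GABPB1 and GABPB2 had log2 fold changes of -0.02 (adjusted p 0.86) and 0.03 (adjusted p 0.82). MKL2, a coactivator of serum response factor, fell by 0.80 (SE 0.13, adjusted p 4e-05), and EP300, an acetyltransferase recruited by many ETS factors, fell by 0.85 (SE 0.17, adjusted p 0.00043).

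Of 18 textbook targets of the members, 3 fell after siRNA and none rose, or 16.7% called beside the 3.41% of all genes, with a median of -0.00084. They were the ERK phosphatases DUSP6 (-0.61, SE 0.12, adjusted p 0.055) and DUSP5 (-0.56, SE 0.11, adjusted p 0.064) and the survival gene MCL1 (-0.63, SE 0.12, adjusted p 0.055). After shRNA 17 could be tested and 13 were called, or 76.5% beside the 60.6% of all genes, with 5 higher and 8 lower and a median of -0.09. The ERK feedback genes listed as targets of ETV4 and ETV5 accounted for 6 of the lower calls, out of 7 tested, with a median of -1.34. After siRNA the same 7 genes had a median of -0.43, with 2 called lower, where 2.27% of all genes were. DUSP6 fell by 1.63 (SE 0.11, adjusted p 2.3e-09) and SPRY4, an inhibitor of receptor tyrosine kinase signalling, by 1.96 (SE 0.18, adjusted p 5.7e-08). All 5 serum response genes tested were called, in both directions. EGR1 fell by 2.01 (SE 0.18, adjusted p 4.2e-08) and IER2 by 1.01 (SE 0.09, adjusted p 3.9e-08), while 3 rose (FOS, SRF and MCL1). MCL1, which had fallen after siRNA, stood at 540 and 547 CPM in shCON and at 632 and 619 CPM in shETS1. Of the 5 mitochondrial genes listed as targets of GABPA, 2 rose. Whether the members contributed to any of these changes was not tested.

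**Figure D4:**
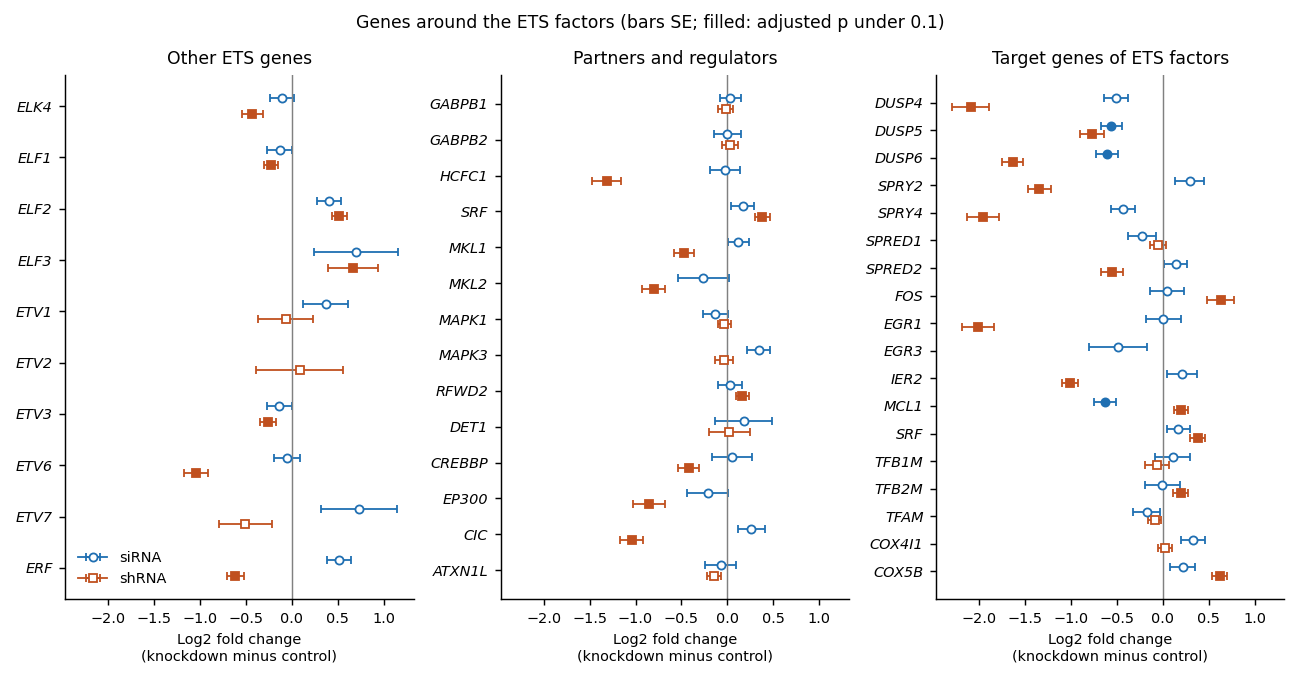
Log2 fold change (x axis, knockdown minus control) of the other ETS genes, of partners and regulators and of target genes (y axes) after siRNA (circles) and after shRNA (squares), with bars for the SE and filled symbols for an adjusted p under 0.1. The squares of DUSP6 (-1.63), SPRY4 (-1.96) and EGR1 (-2.01) lie far to the left, while the filled circles are those of DUSP5, DUSP6 and MCL1.

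Genes with a pattern most like that of a member were sought among 10049 genes with at least 5 CPM in both tables, by distance in the plane of the 2 log2 fold changes. For FLI1 these were FOSL1 (-0.11 after siRNA and -3.33 after shRNA), ADD2 and FBN2. Those nearest to ETV4 were ANPEP, ANO1 and RAC2, and those nearest to GABPA were CRIM1, KIAA1377 and LACC1. Each likeness rests on 2 comparisons of 4 libraries.

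FLI1 and ERG are also used by endothelial and blood cells, so markers of those cells were read in the same libraries. SCC25 is an established carcinoma line, so its culture should hold no endothelial, blood or fibroblast cells. Of 6 endothelial markers, PECAM1 was at 0 in all 8 libraries and CDH5 did not exceed 0.125 CPM. Their summed level ranged from 1.13 to 1.63 CPM in the siRNA table and from 2.197 to 2.227 in shCON, and it was 24.8 to 25.0 in shETS1, where KDR alone reached 24.0 CPM. VWF stood at 0.199 and 0.270 CPM in shCON and at 0.0871 and 0.0793 CPM in shETS1, on 7 counts or fewer per library. TEK went the other way, from 0.0796 and 0.116 CPM in shCON to 0.697 and 0.951 CPM in shETS1, on 24 counts or fewer. Of the 6 endothelial markers, 1 could be tested after siRNA and was not called. After shRNA, 2 could be tested and 2 were called higher, where 29.7% of all genes were. Of 5 blood markers, CD3E was at 0 in 7 libraries and PTPRC did not exceed 0.479 CPM. Nearly all of the blood sum was LCP1, and it ranged from 614 to 684 CPM in the siRNA table, from 141 to 146 in shCON and from 67.0 to 67.2 in shETS1. None of the 6 fibroblast markers was at 0. They summed to 180 to 207 CPM in siRNA control and 280 to 325 in ETS1 siRNA, where COL1A1 was highest and rose by 0.73 on the log2 scale (SE 0.14, adjusted p 0.050). In the shRNA table, where LUM and DCN were highest, the sums were 240 to 268 CPM in shCON and 1984 to 2079 in shETS1. Markers of squamous epithelium summed to 16217 to 21063 CPM in siRNA control and 24423 to 28115 in ETS1 siRNA, and to 16315 to 16516 in shCON and 27986 to 28537 in shETS1. The fibroblast and squamous sums were thus higher, without overlap, after both knockdowns, but not every marker rose. Of 8 squamous markers, none was called after siRNA, when 1 had a negative log2 fold change. After shRNA, 6 were called higher and 2 lower, where 29.7% and 30.9% of all genes were. Those lower were TP63, from 632 and 612 CPM to 424 and 519, and SFN, from 480 and 470 to 430 and 416. Of 6 fibroblast markers, 1 was called after siRNA, with 2 negative. All 4 tested after shRNA were called higher. In these bulk libraries of a single line, fewer cells of the line that use a gene and less RNA of it per cell cannot be told apart. The part of these markers in the members' changes was not tested.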

How the data were processed

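The authors prepared TruSeq libraries, aligned single-end reads to GRCh37 with TopHat2 2.1.1 and Bowtie2 2.2.6, and deposited raw counts per Ensembl gene from featureCounts 1.5.0, versions being those of the submitters' processing notes. The strand and multi-mapping settings were not given in the sources used here. The deposited counts come in 2 tables, 1 per kind of knockdown, and all 8 sample columns were used. Knockdown and control libraries of the same table were compared by the two-sided quasi-likelihood test of edgeR 4.0.16 (R 4.3.3) across all genes kept by filterByExpr, with TMM scaling, no covariate and Benjamini-Hochberg adjustment over all genes tested, and a gene was called at an adjusted p under 0.1. The difference between the knockdowns was the interaction in a fit of all 8 libraries. Fold changes are on the log2 scale, knockdown minus control. Symbols were matched to GENCODE v44 on GRCh37 for coordinates, exon lengths and overlaps, of which 33522 of 56638 matched as they stood and 1898 as older names. RefSeq promoters (GRCh38.p14) were used for sequence alone.

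The members and gene lists were chosen with earlier results of these data known. All members are named, along with up to 6 other ETS genes and up to 4 called partners and 4 called targets per comparison by lowest adjusted p. For FLI1, ETV4 and GABPA, the 3 nearest genes in the plane of the 2 fold changes are named. Genes whose exons overlap a member, GABPB1, GABPB2 and single marker genes were named after their values were seen. So were the 3 serum response genes that rose after shRNA. From the list of blood markers, 1 gene is not reported here. Replicates of a group differed by more than counting error (chi-square per degree of freedom 6.23 to 23.2), and p-values measure only the spread between 2 libraries per group. The check of pairing by replicate number correlated the deviations of same-numbered libraries, which gave -0.54 for siRNA and -0.24 for shRNA, so the numbers were not taken to pair the samples.

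The fits were tested on simulated data in which 200 genes carried a log2 change of 1. The siRNA design recovered 59.9% of the 192 that were tested, among 14507 genes. The shRNA design recovered 84.6% of 195 among 16131, and the interaction 49.5% of 196 among 16372. Unchanged genes made up 8%, 11.3% and 16.4% of calls, the last 2 above the rate of 0.1 set by the threshold. Far fewer genes were changed than the 60.6% called after shRNA, so the simulation does not speak to scaling or false calls there. Alternatives were DESeq2 1.42.0 and its size factors, library size alone, other filters on low counts, a replicate block, a joint fit, other bases for the family shares, a threshold of 0.05 and leaving out each library. A block with crossed replicate numbers was added later. So was a fit without structural and mitochondrial RNAs, scaled by library size alone.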

Additional observations from a re-analysis of the deposited data

Results flagged for a closer look

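For 8 of the 10 members and for ETS1, the effects of the 2 knockdowns differed in the test of the difference itself, given here as the shRNA log2 fold change minus the siRNA log2 fold change (edgeR quasi-likelihood test, Benjamini-Hochberg adjusted p under 0.1). The values were -3.21 for FLI1, -2.62 for ETV4, -1.34 for ERG, -1.33 for ELF4, -1.14 for ETV5, -0.96 for ELK3, -0.76 for ELK1, 0.87 for GABPA and 1.23 for ETS1. ELF4 and GABPA were called in opposite directions by the 2 knockdowns, although the shRNA call of GABPA held in 5 of 15 alternatives, whereas the other 6 of these members were called after shRNA alone. The kind of knockdown, its duration and the differing make-up of the counts cannot be told apart in these values.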

How the results depend on the processing

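With 2 libraries per group, the count of members called after siRNA was the least stable result. It was 2 as reported, 0 at a threshold of 0.05 and from 0 to 3 when 1 library was left out, being 0 without siRNA control replicate 1 and 1 without siRNA control replicate 2. A replicate block, which assumes that the numbers pair the libraries, gave 0 members after siRNA, with adjusted p-values of 0.22 for ELF4 and 0.21 for GABPA. Same-numbered libraries did not deviate together (correlations of -0.54 and -0.24), which gives no support for a pairing, and with the numbers crossed, an alternative chosen after seeing the data, 4 members were called. Counts of called members stayed between 8 and 10 after shRNA and between 7 and 9 for the interaction under the alternatives run. With structural and mitochondrial RNAs left out and library size as the only scaling, 9 were called after shRNA. FLI1 was not tested after shRNA and in the interaction under the filter for protein-coding genes with at least 1 TPM. Over all genes, the siRNA count of 502 became 1466 without a filter on low counts, 797 with DESeq2, 793 with that protein-coding filter, 97 with the block, 3238 with the crossed block, 2166 in the joint fit, 190 at a threshold of 0.05 and from 72 to 1478 when 1 library was left out. The siRNA values that changed sign when 1 library was left out had not been called: ETV5 ranged from -0.28 to 0.17, ELK3 from -0.29 to 0.029 and EHF from -0.74 to 0.061, with the positive values without siRNA control replicate 1 (ETV5 and ELK3), ETS1 siRNA replicate 1 (ELK3, 0.027) and ETS1 siRNA replicate 2 (EHF). ETS2 was called after siRNA without a filter (adjusted p 0.099), with DESeq2 (0.079) and in the joint fit (0.024). The rise of GABPA after shRNA held in 5 of 15 alternatives and was lost in the rest, DESeq2 (adjusted p 0.15) and the block (0.15) included. Of the 44 family shares, 34 moved by more than the spread between replicates when counts were not divided by exon length and 44 when ETS1 and the members alone formed the base. The causes were not tested. Of all fold changes of the members and ETS1 under the alternatives, 493 kept their direction and their side of the threshold, 20 lost a call, 9 gained one and 4 changed sign. The fold of FLI1 rests on 54 to 60 counts per shETS1 library, and the depth cannot resolve the 7 ETS genes with at most 10 counts.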
